A study of Mus musculus with 24 samples.

Results

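*Axin2*, *Nkd1*, *Sp5*, *Lef1*, *Tcf7*, *Tcf7l1*, *Tcf7l2*, *Sfrp1*, *Sfrp2* and *Frzb* were followed through 24 RNAseq libraries of mouse archicortex (ARK), the medial edge of the embryonic cortex that forms the hippocampus. These 10 genes were chosen by name, as genes of the canonical Wnt response and its antagonists, and are 10 of the 51912 genes in the deposited table. All of them were found in the table by symbol, and all passed the filter on low values (at least 10 in at least 4 libraries) that left 16454 genes for testing.

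Wnt proteins bind Frizzled receptors with Lrp5 or Lrp6, which stabilises beta-catenin and lets it join TCF/LEF factors on target genes. *Axin2*, *Nkd1* and *Sp5* are transcribed in response to this signal, and *Axin2* and *Nkd1* encode proteins that dampen it in return. In the embryonic telencephalon the cortical hem, a strip of cells beside the choroid plexus, is the main source of Wnt ligands for the hippocampal primordium, where *Lef1* is needed for the hippocampus to form.

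The libraries fall into 6 groups of 4, all of dissected ARK from embryos of a mixed C57BL/6J;MF1 background. Sox9fl/fl;Sox1Cre mutants and Sox9+/+;Sox1Cre controls were sampled at E12.5 and at E13.5, and Sox9fl/fl;NestinCre mutants and Sox9+/+;NestinCre controls at E13.5. SOX9 is a transcription factor of neural progenitors, and the mutants are compared with their controls to find which genes change when *Sox9* is deleted in these cells. The controls carry the same Cre as their mutants, so an effect of Cre alone is shared by both. The 2 lines differ in when and where *Sox9* is lost. Deletion with Sox1Cre, a targeted allele of *Sox1*, is early and takes in hem and neuroepithelium alike. The NestinCre transgene deletes later and largely spares the hem. Nothing in the labels ties a library to an embryo or a litter, so the p-values measure the spread between these libraries, which may be partly technical. Sequencing depth was 16163560 to 49445219 reads on genes per library. Values are normalized counts, that is reads per gene divided by 1 size factor per library.

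*Sox9* itself was lower in all 3 mutant groups. At E13.5 it measured 3363 ± 376 normalized counts in Sox9fl/fl;Sox1Cre mutants against 5578 ± 306 in controls (SD, n = 4 each). The E12.5 mutants measured 2260 ± 508 against 4522 ± 503, and the NestinCre mutants 3134 ± 162 against 5152 ± 465. No mutant library reached the lowest of its controls in any of these comparisons. The log2 changes were -0.74, -1.02 and -0.71, with adjusted p (limma, Benjamini-Hochberg over all genes tested) of 0.0021, 6.28e-05 and 0.030. The paper reports that Cre removes only some exons of the conditional *Sox9* allele, and that reads from the exon left in place persist in mutants. Counts over the whole gene therefore do not show how much intact *Sox9* RNA remained. They also cannot rank the Cre lines by extent of deletion. The call in NestinCre mutants was lost when any of A17, A18, A19, A20, A21, A22 or A24 was left out, with adjusted p of up to 0.11, and with log2 *Xist* as a covariate (adjusted p = 0.062).

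The tissue carried its defining markers: *Lhx2*, the most abundant of the 5 markers of hippocampal and cortical neuroepithelium, averaged 15920 normalized counts and *Emx2* 5323. Markers of thalamus and diencephalon were partly present: *Otx2*, which choroid plexus and hem also express, averaged 2319, *Lhx9* 1744, *Six3* 309, *Rora* 302, *Irx3* 85.4, *Irx5* 80.4 and *Barhl2* 61.0, and *Gbx2*, *Irx1* and *Irx2* under 10. Of those of the ventral telencephalon, *Nkx2-1*, *Gsx1* and *Lhx8* averaged under 10. One library stood apart. A1, a Sox9fl/fl;Sox1Cre mutant at E13.5, had a mean squared deviation from its group mean of 0.34 on the log2 scale, against 0.111 to 0.209 in the other 23. Its 12 cortical hem markers summed to 14700 normalized counts, against 22430 to 32550 in the other mutants of its group, and its 9 choroid plexus markers, led by *Ttr*, to 8167 against 68120 to 91840. Its meningeal markers were low as well, at 19140 against 31800 to 45470, and its endothelial markers, at 7744 against 13490 to 16770. Those of hippocampal and cortical neuroepithelium were high, at 38900 against 25690 to 32870. Results that A1 moves are therefore also given without it. A18, a NestinCre mutant, came next at 0.209. Its ventral telencephalon markers summed to 2211, against 1026 to 1174 in the other mutants of its group, and it had the highest *Sfrp1* of all libraries. *Xist*, the RNA made from the inactive X chromosome, was at 100 normalized counts or more in 4 of 4 E12.5 Sox1Cre controls and in 0 of 4 E13.5 Sox1Cre controls. Each of the 2 Sox1Cre mutant groups held 2 libraries on each side of that level. Sex and age therefore cannot be told apart in the controls, but can in the mutants.

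Upstream sequences of *Sp5* and *Axin2* are shown because both target genes fell with age, while their ratio differed between E13.5 Sox1Cre mutants and controls. Each run is the 250 bases before the gene's RefSeq start in GRCm38.p6, outside the transcript, on the plus strand. Capitals mark exact matches, on either strand, to CTTTGAT or CTTTGTT, which are forms of the TCF/LEF recognition sequence and share no letters with each other in these windows. Read on the other strand, as ATCAAAG and AACAAAG, both also fit the recognition sequence of SOX proteins.
Sp5, chr2:70474673-70474922: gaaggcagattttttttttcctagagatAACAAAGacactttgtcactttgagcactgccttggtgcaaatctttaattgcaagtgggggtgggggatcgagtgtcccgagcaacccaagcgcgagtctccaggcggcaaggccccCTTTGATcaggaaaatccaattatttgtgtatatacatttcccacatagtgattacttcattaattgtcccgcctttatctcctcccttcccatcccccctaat
Axin2, chr11:108920099-108920348: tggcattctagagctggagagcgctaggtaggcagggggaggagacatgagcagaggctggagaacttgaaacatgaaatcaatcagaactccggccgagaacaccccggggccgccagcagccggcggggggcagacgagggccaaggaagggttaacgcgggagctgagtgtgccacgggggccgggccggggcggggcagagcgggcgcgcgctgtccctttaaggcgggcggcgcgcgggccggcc

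The *Sp5* run holds CTTTGAT from 104 to 98 bases before the start and AACAAAG from 222 to 216 bases before it, and the *Axin2* run holds neither. RefSeq windows were found for 9 of the 10 genes, 14 windows in all. CTTTGAT was in 1 of these 14, that of *Sp5*, and CTTTGTT in 2, those of *Sp5* and of 1 *Tcf7l2* start. Over all 32851 windows of the same length, 3.21% held CTTTGAT and 5.03% CTTTGTT. A match is a description of the letters and not evidence of binding, and these windows leave out introns and distant enhancers.

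Axin2 encodes a scaffold of the complex that degrades beta-catenin. It lies on chromosome 11 (GRCm38, 108920349 to 108950783), 3.85 megabases from *Sox9* (112782224 to 112787760). Its normalized counts were 4627, 3635, 4820 and 4560 in E13.5 Sox1Cre controls (A5 to A8) and 2961, 5814, 5734 and 5112 in their mutants (A1 to A4). At E12.5 they were 5711, 5873, 7573 and 8110 in controls (A13 to A16) and 7173, 7382, 6885 and 9135 in mutants (A9 to A12). The NestinCre libraries measured 4143, 5496, 4051 and 4988 in controls (A21 to A24) and 4175, 4908, 4517 and 4360 in mutants (A17 to A20). The lowest E12.5 control library was thus above the highest E13.5 Sox1Cre control library, and mutants overlapped their controls in all 3 comparisons.

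*Nkd1* encodes naked cuticle 1, which binds Dishevelled and is induced by Wnt signalling (chromosome 8, 88521354 to 88594884). Its counts were 3200, 2799, 3707 and 3399 in E13.5 Sox1Cre controls and 1933, 3746, 3436 and 3295 in mutants. At E12.5 controls measured 3741, 3929, 4629 and 5090, and mutants 4375, 3971, 4525 and 4979. NestinCre controls measured 2634, 3574, 2826 and 3105, and mutants 2747, 3168, 2798 and 2890. A1 was again the lowest library, and within each Sox1Cre genotype all E13.5 libraries lay below all E12.5 libraries.

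*Sp5* encodes a zinc-finger transcription factor induced by Wnt signalling (chromosome 2, 70474923 to 70477729). E13.5 Sox1Cre controls measured 956, 689, 1000.0 and 792 normalized counts, and mutants 347, 806, 675 and 469. At E12.5 controls measured 1389, 1148, 1524 and 1659, and mutants 1191, 1657, 1184 and 1417. NestinCre controls measured 582, 932, 722 and 730, and mutants 597, 817, 626 and 677. All E12.5 libraries were above all E13.5 libraries, and 3 of 4 E13.5 Sox1Cre mutants lay below the lowest of their controls.

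The TCF/LEF factors varied less. *Lef1* (chromosome 3, 131110471 to 131224356) measured 2669, 2600, 2352 and 2530 in E13.5 Sox1Cre controls and 2332, 2975, 2813 and 2811 in mutants. At E12.5 it measured 2822, 2728, 2803 and 2671 in controls and 2497, 2359, 2597 and 2098 in mutants, without overlap. NestinCre controls measured 2248, 2463, 2494 and 2296, and mutants 2505, 2473, 2710 and 2525. *Lef1* had the smallest relative spread over the 24 libraries of the 10 genes, with a mean of 2557 and a SD of 214. *Tcf7*, which encodes TCF1 and is itself Wnt responsive in many tissues, ranged from 330 in A1 to 746 in A12. *Tcf7l1*, which encodes a factor that mostly represses Wnt targets, ranged from 1272 to 2030, with its highest values in A17 and A1. *Tcf7l2*, known in the brain mostly for the thalamus, was lowest of the 4 at 247 to 631.

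Among the secreted antagonists, which bind Wnt proteins outside the cell, *Frzb* (chromosome 2, 80411970 to 80447625) measured 635, 413, 574 and 580 in E13.5 Sox1Cre controls and 281, 656, 478 and 291 in mutants. At E12.5 controls measured 893, 1015, 888 and 820, and mutants 760, 449, 771 and 622, so that no mutant reached a control. NestinCre controls measured 455, 690.0, 621 and 551, and mutants 343, 597, 366 and 399. *Sfrp1*, made by cortical progenitors, had the widest range, from 1574 in A10 to 10240 in A18. *Sfrp2* stayed between 512 and 820 in all libraries.

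**Figure D1:**
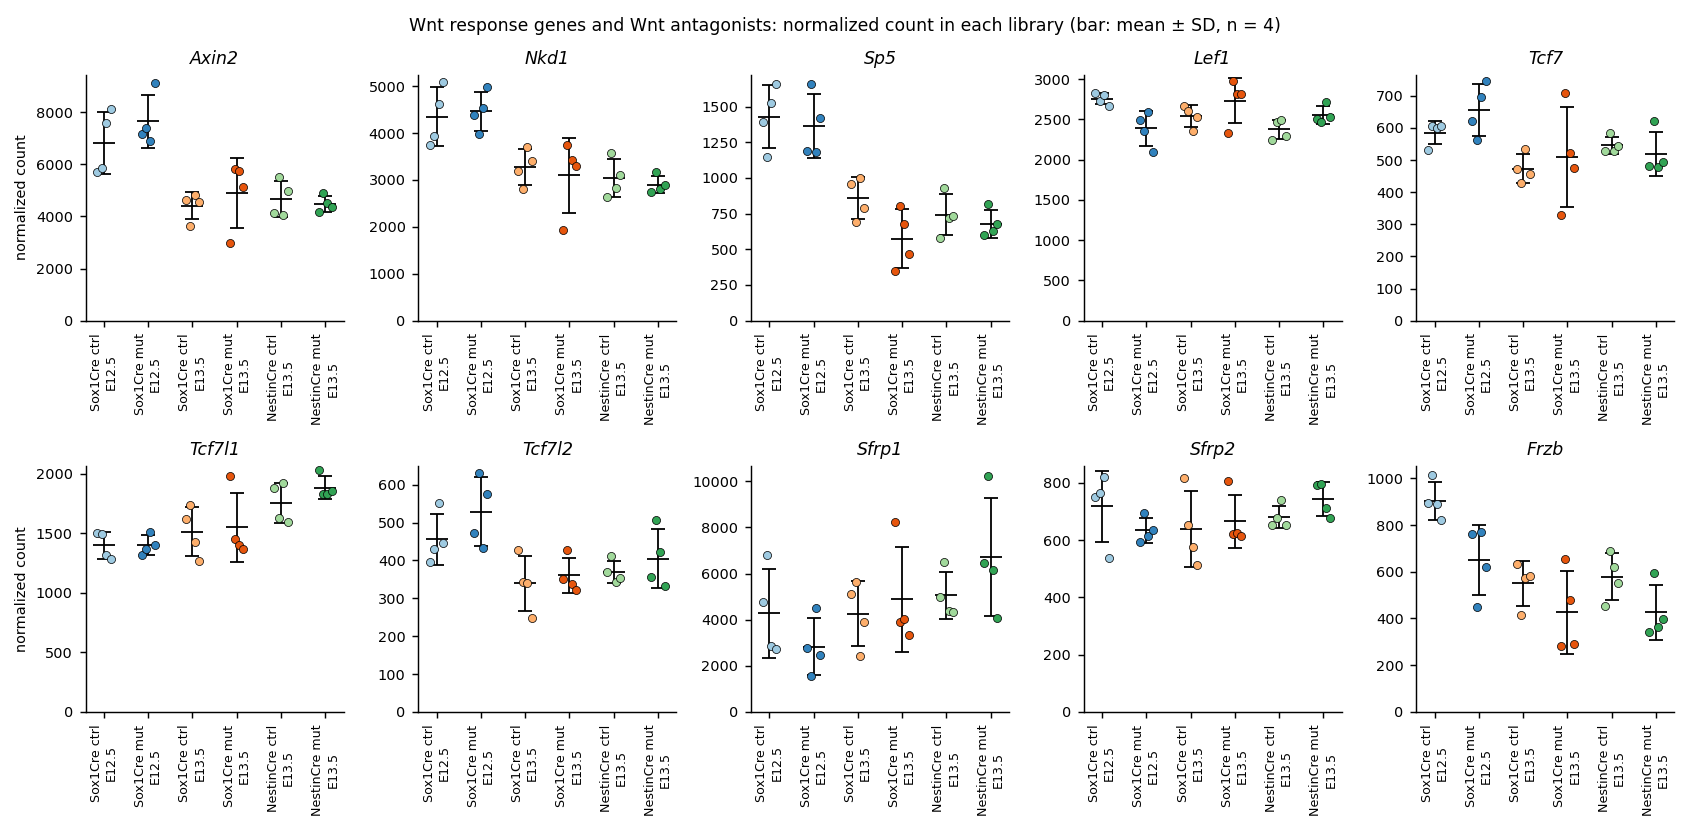
Normalized count (y axis, from 0) of each of the 10 genes in the 24 libraries, grouped by Cre line, genotype and age. Points are libraries and bars are the mean ± SD of 4. *Sp5* libraries at E12.5 lie at 1148 and above, and those at E13.5 at 1000.0 and below.

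Set per kilobase of exon, which allows levels of different genes to be compared, *Sfrp1* and *Axin2* were the most abundant. In E13.5 Sox1Cre controls *Sfrp1* measured 975 normalized counts per kilobase, *Axin2* 801 and *Nkd1* 719, and the ranges of neighbours in this order overlapped. *Sp5* (409), *Tcf7l1* (386), *Sfrp2* (297) and *Lef1* (289) followed, each overlapping the next, then *Tcf7* (180) and *Frzb* (170). *Tcf7l2* was lowest at 38.7, below every *Frzb* value. At E12.5 controls had *Axin2* first, at 1238 per kilobase, with a range that overlapped that of *Sfrp1* (980). In E12.5 mutants *Axin2* (1388) stood clear of *Nkd1* (979), and *Sfrp1* (649) was level with *Sp5* (649).

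In E13.5 Sox9fl/fl;Sox1Cre mutants no gene of the Wnt response or its antagonists differed from controls past the threshold. None of the 10 passed the test, in a comparison in which 0.924% of all genes tested did (152 of 16454, and 510 without A1). No gene of the 10 showed mutants and controls without overlap, where 5.06% of all genes tested did. Mutants had 4905 ± 1334 normalized counts of *Axin2* and controls 4411 ± 529 (SD over 4 libraries), and the log2 change was 0.11 with a 95% interval of -0.24 to 0.47. *Nkd1* changed by -0.12 (-0.43 to 0.20) and *Lef1* by 0.10 (-0.04 to 0.24). These intervals leave out a change of *Axin2* or *Nkd1* by 1 log2 unit in either direction. *Sp5* showed the largest difference. Its level was 574 ± 206 in mutants and 859 ± 144 in controls, a log2 change of -0.64 (-1.06 to -0.21, adjusted p = 0.17, limma), and the exact two-sided permutation test over the 35 splits of these 8 libraries gave p = 0.086. *Frzb* measured 426 ± 178 against 551 ± 95.8 (log2 change -0.44, -0.93 to 0.05). Without A1, the *Sp5* change was -0.42 (adjusted p = 0.22), that of *Axin2* 0.34 (adjusted p = 0.16), that of *Nkd1* 0.10, that of *Lef1* 0.18 (adjusted p = 0.11) and that of *Frzb* -0.27, and again none of the 10 passed.

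In E12.5 mutants, again none of the 10 genes passed, where 0.723% of all genes tested did. *Lef1* measured 2388 ± 216 in mutants and 2756 ± 69.8 in controls, a log2 change of -0.21 (-0.35 to -0.07, adjusted p = 0.17, limma). *Frzb* measured 650.4 ± 151 against 904 ± 81.4, a log2 change of -0.50 (-0.99 to -0.01, adjusted p = 0.36). All 4 mutants lay below all 4 controls for these 2 genes, the smallest exact permutation p that 4 against 4 libraries allow (0.0286), and 10.3% of all genes tested showed no overlap between these groups. *Axin2* changed by 0.17 (-0.18 to 0.53), *Nkd1* by 0.04 (-0.27 to 0.36) and *Sp5* by -0.07 (-0.50 to 0.35). *Sfrp1* had the least precise estimate, -0.59 with an interval of -1.33 to 0.15.

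NestinCre mutants gave no call either, where 0.0669% of all genes tested passed, and none of the 10 separated the groups without overlap, as 4.98% of all genes did. *Axin2* changed by -0.05 (-0.40 to 0.31), *Nkd1* by -0.06 (-0.38 to 0.26) and *Sp5* by -0.12 (-0.54 to 0.31). *Frzb* measured 426 ± 116 in mutants against 579 ± 100.5 in controls (log2 change -0.46, -0.95 to 0.03, adjusted p = 0.81, limma). The point estimates for *Frzb* were thus -0.44, -0.50 and -0.46 in 3 sets of mutants and controls that share no library, and none of them passed the test. They were less alike under other settings: without A1 the first was -0.27, without A18 the last was -0.63, and with log2 *Xist* as a covariate they were -0.64, -0.33 and -0.57. At an unadjusted p under 0.05, 1 of the 10 genes (*Sp5*) differed in E13.5 Sox1Cre mutants, where 11.7% of all genes did, and 3 without A1 (*Sp5*, *Axin2* and *Lef1*), where 19.5% did. At E12.5 2 did (*Lef1* and *Frzb*) beside 2217 of all 16454 genes, and in NestinCre mutants 0 did beside 6.47%. These counts are near the shares of all genes, and edgeR and DESeq2 on the recovered reads called 0 of the 10 in each comparison. With E13.5 controls of the 2 Cre lines set against each other, 0 of the 10 genes passed, where 0.243% of all genes tested did.

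Changes in mutants were also compared with each other. The *Sp5* change in Sox1Cre mutants differed from that in NestinCre mutants by -0.52 (-1.12 to 0.08, adjusted p = 0.70, limma), and that at E13.5 from that at E12.5 by -0.57 (-1.17 to 0.03, adjusted p = 0.70). The *Lef1* change at E13.5 differed from that at E12.5 by 0.31 (0.11 to 0.51, unadjusted p = 0.0038, adjusted p = 0.54). Without A1 the 2 *Sp5* differences were -0.30 and -0.35 and that of *Lef1* was 0.39 (adjusted p = 0.28). Between ages *Lef1* was the only 1 of the 10 genes at an unadjusted p under 0.05, where 7.4% of all genes were. None of the 10 genes passed in either test of a difference, where 0.0425% of all genes tested passed between Cre lines and 0% between ages. A larger effect on *Sp5* in one set of mutants than in another was therefore not shown.

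**Figure D2:**
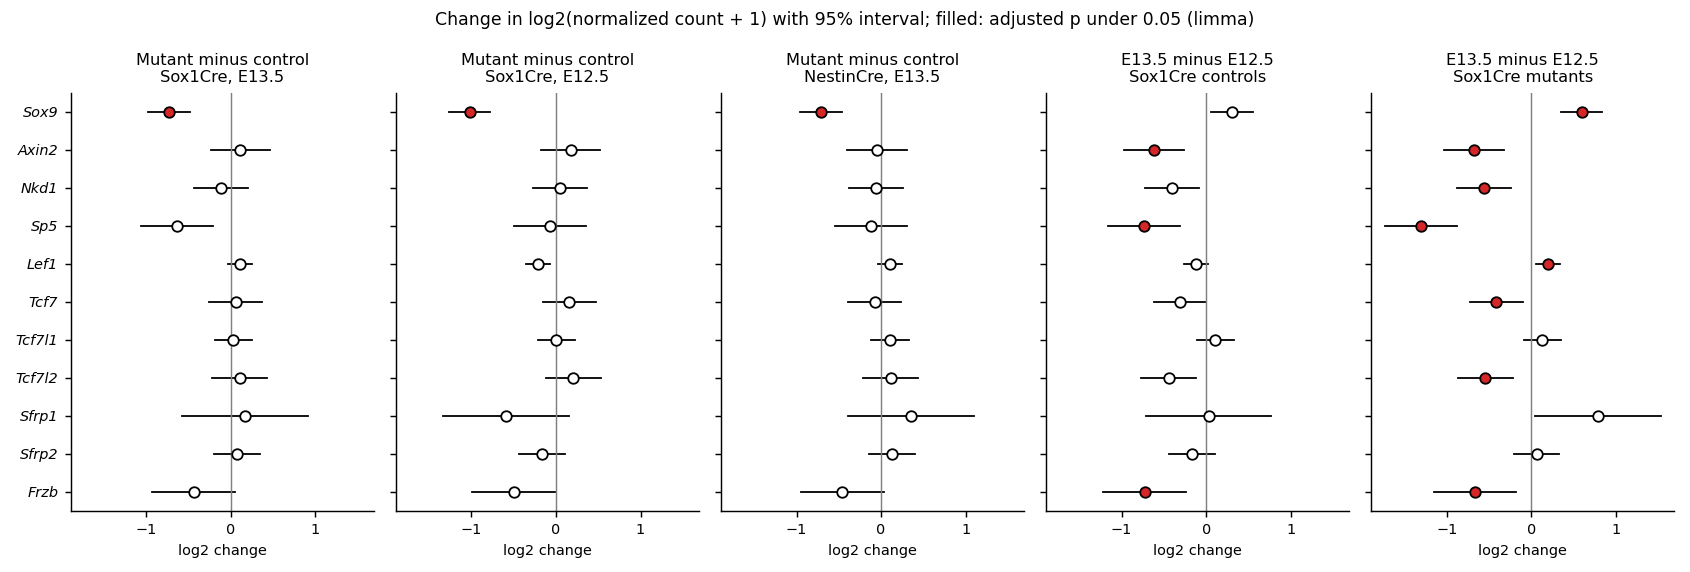
Log2 change (x axis) of *Sox9* and the 10 genes in 3 comparisons of mutants with controls and in 2 comparisons of E13.5 with E12.5, each with its 95% interval. Filled points passed an adjusted p of 0.05 (limma): *Sox9* alone in the mutant panels, 3 of the 10 genes with age in controls and 7 with age in mutants.

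*Sp5* was low for its level of *Axin2* in E13.5 Sox9fl/fl;Sox1Cre mutants, set against their controls. The ratio of the *Sp5* to the *Axin2* normalized count was 0.207, 0.19, 0.208 and 0.174 in controls and 0.117, 0.139, 0.118 and 0.0917 in mutants, so that every mutant library lay below every control. In E12.5 controls it ran from 0.196 to 0.243 and in mutants from 0.155 to 0.225. NestinCre controls spanned 0.141 to 0.178 and mutants 0.139 to 0.166, so that A2, the highest of the E13.5 Sox1Cre mutants, was level with the lowest NestinCre mutant. The ratio in NestinCre controls was thus already below that in the Sox1Cre controls, with an overlap of 1 library. This ratio was chosen after the values were seen and carries no test: of the 45 ratios that 10 genes allow, 7 did not overlap between E13.5 Sox1Cre mutants and controls, 4 of them with *Sp5*, against 4 at E12.5 and 2 in NestinCre mutants. Over all ratios of 2 of the 15776 genes above 0 in every library, 5.07%, 9.37% and 4.42% did not overlap. The 45 ratios share their genes and are not independent.

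**Figure D3:**
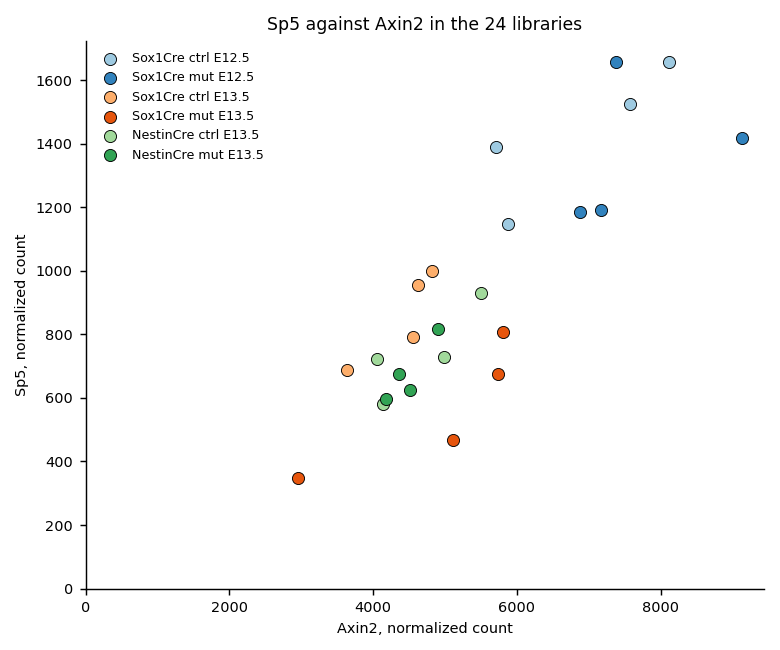
Normalized count of *Sp5* (y axis) against that of *Axin2* (x axis) in the 24 libraries, coloured by group, with both axes from 0. The 4 E13.5 Sox1Cre mutants have ratios of 0.0917 to 0.139 against 0.174 to 0.208 in their controls, and the highest of them is level with the lowest NestinCre mutant (0.139).

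More of the 10 genes passed with age than with genotype. In Sox1Cre controls 3 of the 10 genes fell from E12.5 to E13.5 and none rose, where 11.5% of all genes tested passed in either direction, 5.17% fell and 6.33% rose. *Axin2* went from 6817 ± 1205 to 4411 ± 529 normalized counts (SD, n = 4 each), a log2 change of -0.62 (SE 0.17, adjusted p = 0.023, limma). *Sp5* went from 1430.0 ± 218 to 859 ± 144 (-0.74, SE 0.20, adjusted p = 0.024) and *Frzb* from 904 ± 81.4 to 551 ± 95.8 (-0.73, SE 0.24, adjusted p = 0.049). *Nkd1* (-0.40, adjusted p = 0.090) and *Tcf7l2* (-0.44, adjusted p = 0.072) did not pass. Under other settings *Nkd1* passed in 2 of 10 alternatives and *Tcf7* in 1. *Tcf7l2* passed in 1 of 8 fits with a library left out (adjusted p = 0.021, limma). The median change of the 10 genes was -0.36, beside -0.002 over all genes. The *Axin2* and *Sp5* calls were lost without any of A6, A8, A15 or A16 (adjusted p of up to 0.090 and 0.093), and that of *Frzb* without any of A6, A7, A8, A13, A14, A15 or A16 (up to 0.16). The *Frzb* call was also lost with no filter, with TMM normalization and by edgeR. With log2 *Xist* as a covariate none passed, of the 10 or of all genes, and *Axin2* changed by -0.53 and *Sp5* by -0.39.

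The Sox9fl/fl;Sox1Cre mutants, in which sex does not follow age, gave the same comparison in 8 other libraries. It was added after the values were seen. Here 7 of the 10 genes passed, 6 falls and 1 rise, where 25.9% of all genes tested did, 12.1% as falls and 13.8% as rises. *Axin2* fell from 7644 ± 1015 to 4905 ± 1334 (-0.68, SE 0.17, adjusted p = 0.0061, limma). *Nkd1* fell from 4463 ± 416 to 3103 ± 802 (-0.56, SE 0.15, adjusted p = 0.010) and *Sp5* from 1362 ± 224 to 574 ± 206 (-1.30, SE 0.20, adjusted p = 2.76e-04). For these 3 targets every E13.5 mutant was below every E12.5 mutant, as it was for *Tcf7l2* (-0.54, adjusted p = 0.015), where 23.1% of all genes tested did not overlap.

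Other TCF/LEF factors and *Frzb* passed less firmly. *Tcf7* fell (-0.41, adjusted p = 0.047, limma), *Frzb* fell (-0.67, adjusted p = 0.041) and *Lef1* rose, from 2388 ± 216 to 2733 ± 278 (0.19, adjusted p = 0.041). *Tcf7l1* (0.13), *Sfrp1* (0.79, SE 0.36) and *Sfrp2* (0.06) did not pass. With 1 library left out *Sfrp1* changed by 0.50 to 1.04 and passed in 1 of 8 fits (adjusted p = 0.043, limma). The calls of *Axin2*, *Nkd1* and *Sp5* held whichever of the 8 libraries was left out, with adjusted p of up to 0.029, 0.039 and 0.0017. In a fit to these 8 libraries alone those of *Axin2* (adjusted p = 0.064) and *Nkd1* (0.085) were lost, as were those of *Tcf7*, *Frzb* and *Lef1*, and that of *Sp5* was not (0.017). Without A1 the changes were -0.45, -0.35 and -1.09, and those of *Tcf7* and *Frzb* were -0.22 and -0.50. That of *Tcf7l2* was lost without A10 or A12, that of *Tcf7* without A1, A3, A4, A9, A11 or A12, that of *Frzb* without A1, A4, A9, A11 or A12, and that of *Lef1* without A2, A3, A4, A10 or A12. With no filter the calls of *Tcf7*, *Frzb* and *Lef1* were lost, by edgeR those of *Tcf7* and *Frzb*, and by DESeq2 that of *Tcf7*. With log2 *Xist* as a covariate the *Axin2* and *Sp5* changes were -0.68 and -1.31, with adjusted p of 0.0067 and 1.90e-04. Whether the 2 ages were collected or prepared separately is not given in the sources used here.

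Markers of the cortical hem moved with these genes. The list holds 12 genes, several of them Wnt or R-spondin genes themselves, and its most abundant member was *Rspo2*, with a mean of 5734 normalized counts. Their sum was 41930 ± 9431 in E12.5 controls, 48730 ± 8885 in E12.5 mutants, 25740 ± 4902 in E13.5 Sox1Cre controls and 24730 ± 7901 in their mutants, and 22560 ± 4808 and 22570 ± 2432 in NestinCre controls and mutants. From E12.5 to E13.5, 6 of the 12 fell in controls, where 5.17% of all genes tested fell, and 10 in mutants, where 12.1% did, and none rose. With the sum as a covariate, 0% of genes passed with age in controls and 0.00608% in mutants, none of the 10 among them, so hem level and age cannot be told apart here. In dissected tissue fewer hem cells in a sample and less RNA per hem cell cannot be told apart either. Choroid plexus markers, which lie beside the hem, summed to 23780 ± 5736 in E12.5 controls and 47240 ± 19330 in E13.5 Sox1Cre controls, and in mutants to 34520 ± 9844 and 60940 ± 36550, and 0 of 9 rose in controls and 2 in mutants. Neuronal markers summed to 27580 ± 753 and 39680 ± 7599 in controls, and 6 of 8 rose in both genotypes. Markers of hippocampal and cortical neuroepithelium summed to 27510 ± 3490 and 32340 ± 3818 in controls, where 1 of 5 rose and 1 fell, and to 22690 ± 3978 and 32170 ± 5436 in mutants, where 4 rose and 1 fell. Of 8 markers of Cajal-Retzius cells 3 rose in controls, and 3 rose and 4 fell in mutants. Erythroid markers, led by *Hbb-y*, summed to 206800 ± 18290 and 117200 ± 39140 in controls and to 208800 ± 16180 and 105700 ± 32320 in mutants, and 6 of the 9 fell in controls and 5 in mutants, with 1 rise in mutants. Of 12 meningeal markers 3 rose in controls, and 3 rose and 4 fell in mutants. Their part in the changes with age was not tested.

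**Figure D4:**
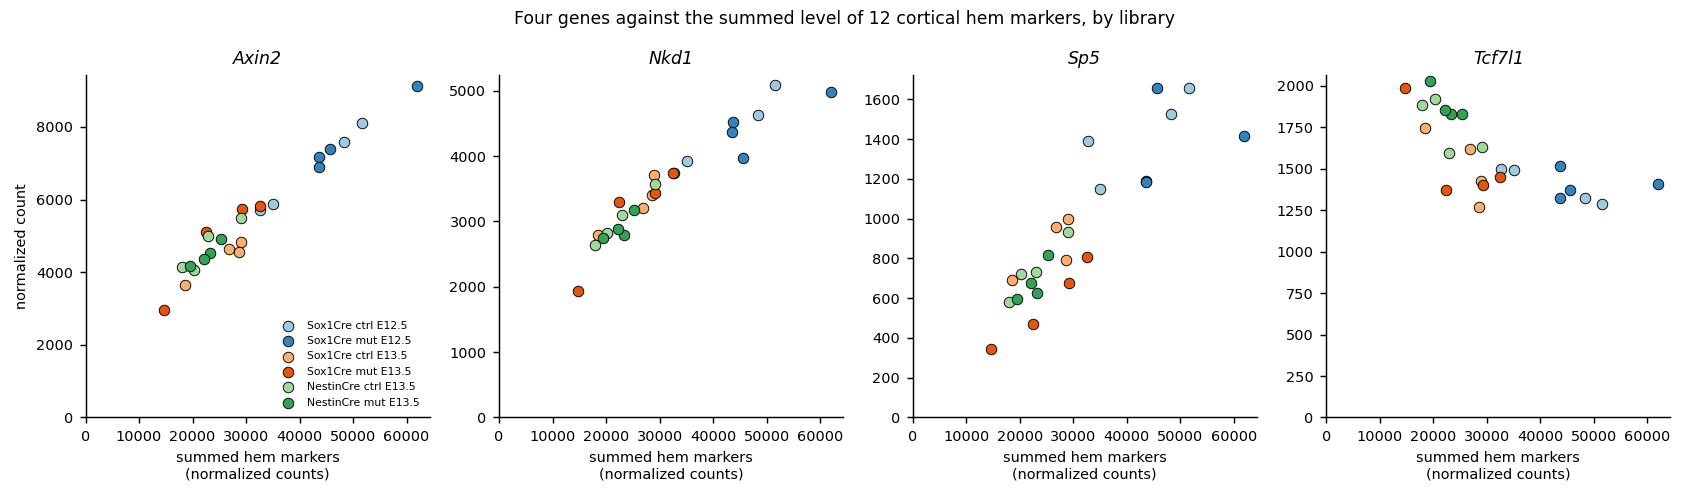
Normalized counts of *Axin2*, *Nkd1*, *Sp5* and *Tcf7l1* (y axes) against the sum of 12 cortical hem markers (x axis, normalized counts), 1 point per library, coloured by group. Over the 24 libraries *Axin2* and *Nkd1* are higher and *Tcf7l1* lower where the sum is higher, and *Sp5* is 2.09% to 2.48% of the sum in the 4 E13.5 Sox1Cre mutants and 2.77% to 3.72% in their controls.

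The same markers bear on *Sp5* in the E13.5 Sox1Cre mutants. *Sp5* was 3.56%, 3.72%, 3.45% and 2.77% of the hem sum in controls (A5 to A8) and 2.36%, 2.48%, 2.31% and 2.09% in mutants (A1 to A4), without overlap. At E12.5 it was 3.15% to 4.25% in controls and 2.29% to 3.63% in mutants, which overlap the E13.5 mutants, and in NestinCre libraries 3.18% to 3.57% and 2.68% to 3.23%. *Axin2* was 15.9% to 19.6% of the sum in E13.5 Sox1Cre controls and 17.9% to 22.8% in mutants. These ratios to the hem sum were chosen after the values were seen and carry no test. The share of all genes whose ratio to it separates E13.5 Sox1Cre mutants from controls was not counted. Over ratios of 2 genes that share was 5.07%. With the hem sum as a covariate, an alternative added after the values were seen, the *Sp5* change was -0.56 with an adjusted p of 0.013 (limma), and 1.4% of all genes tested passed. Without A1 as well, the *Sp5* change was -0.52 (adjusted p = 0.028) and *Axin2* also passed, at 0.25 (adjusted p = 0.0050), where 3.17% of all genes did. With all 24 libraries, no other gene of the 10 passed in a comparison of mutants with controls under the hem covariate, in which 0.638% of all genes passed at E12.5 and 0.079% in NestinCre mutants.

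Libraries of the same group also differed from each other in a pattern. After each group's mean was subtracted from log2 values, *Axin2* and *Nkd1* correlated with r = 0.953 over the 24 libraries, *Axin2* and *Sp5* with 0.82, and *Nkd1* and *Tcf7* with 0.853. The hem sum correlated with *Axin2* at 0.958, with *Nkd1* at 0.925 and with *Sp5* at 0.85. *Tcf7l1* ran the other way, at -0.82 with *Axin2* and -0.769 with the hem sum, and *Lef1* followed the hem sum little (0.203). Without A1 the values were 0.9 for *Axin2* with *Nkd1*, 0.957 for *Axin2* with the hem sum, -0.672 for *Axin2* with *Tcf7l1*, -0.346 for *Sp5* with *Tcf7l1* (from -0.585), -0.112 for *Tcf7* with *Tcf7l1* (from -0.508) and -0.235 for *Lef1* with the hem sum. These are descriptions over libraries that share 1 dissection scheme and normalization, without a test.

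**Figure D5:**
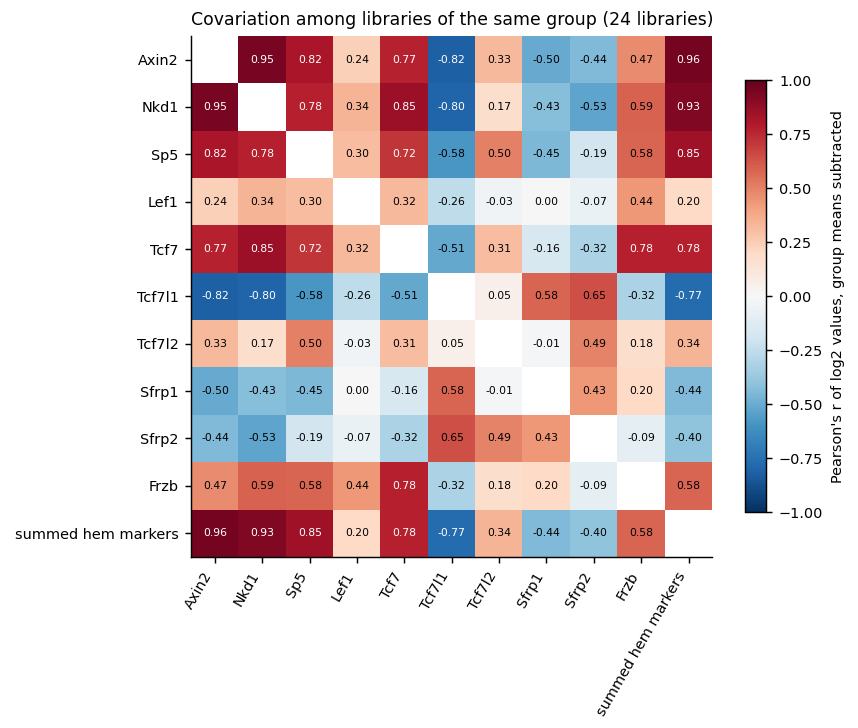
Pearson's r between the log2 values of the 10 genes and the summed hem markers over 24 libraries with each group's mean subtracted. *Axin2*, *Nkd1*, *Sp5*, *Tcf7* and the hem sum form a block of positive values, with *Axin2* and *Nkd1* at 0.953, and *Tcf7l1* is negative against each of them, though only weakly against *Tcf7* without A1 (-0.112).

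The genes most like each member were found among 11820 genes with a mean of at least 100, by the same within-group r. They were *Nkd1*, *Wls* (0.939) and *Wnt9a* (0.936) for *Axin2*, where *Wls* carries Wnt proteins to the cell surface. *Nkd1* was most like *Axin2*, *Man1c1* (0.946) and *Ezr* (0.945), and *Sp5* most like *Msx2* (0.929), *Klhdc8b* (0.925) and the receptor *Fzd10* (0.922). *Tcf7* followed *Mme* (0.956), *Fstl1* (0.954) and *Zfhx3* (0.926). The other factors had looser partners: *Lef1* was most like *Hic1* (0.776), *Lrp5* (0.746) and *Cygb* (0.741), *Tcf7l1* like *Hnrnpab* (0.832), *Elovl2* and *Ubap2*, and *Tcf7l2* like *Nectin1* (0.833), *Cblb* and *Blcap*. Of the antagonists, *Sfrp1* was most like *Efnb2* (0.865), *Ptpru* and *Foxp4*, *Sfrp2* like the replication gene *Mcm3* (0.844), *Fzd2* and *Kif15*, and *Frzb* like *Scd1* (0.883), *Akap5* and *Gpr153*. Without A1 the highest r of *Lef1* fell to 0.607 with *Hic1* and 0.665 with *Cygb*.

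Wider Wnt pathway genes were read from a list of 100, of which 88 passed the filter. In E13.5 Sox9fl/fl;Sox1Cre mutants 1 of the 88 fell and none rose, the ligand *Wnt7b*, at 2858 ± 152 normalized counts against 4467 ± 447 (log2 change -0.64, SE 0.13, adjusted p = 0.015, limma), where 0.924% of all genes tested passed. *Wnt7b* was among the genes the study picked from these libraries, and its call was lost without A4 or without A5 (adjusted p of up to 0.061) and with log2 *Xist* as a covariate (0.060). The study, which called genes with DESeq2, also picked the receptor *Fzd1* as reduced. Here *Fzd1* fell just short of the threshold at E13.5 (-0.36, SE 0.09, adjusted p = 0.0505, limma). All its E13.5 mutants lay below all controls, as for 5.06% of all genes tested. Its change at E12.5 was -0.33 (adjusted p = 0.083), with overlap. At E12.5 also 1 fell and none rose, *Tnfrsf19*, a membrane receptor induced by Wnt signalling, at 9861 ± 1280 against 12870 ± 909 (-0.39, SE 0.07, adjusted p = 0.010), where 0.723% of all genes passed. Both counts are near these shares. The *Tnfrsf19* call was lost without A13 (adjusted p = 0.061) and in a fit to the E12.5 libraries alone (0.11). At E13.5 *Tnfrsf19* changed by -0.28 and did not pass (adjusted p = 0.077, limma), with all mutants below all controls. None passed in NestinCre mutants. The median change over the 88 was -0.03, 0.007 and -0.007 in these 3 comparisons, beside medians of all genes of -0.005, 0.002 and -0.002.

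With age in Sox1Cre controls 9 of the 88 fell and 6 rose, where 5.17% of all genes tested fell and 6.33% rose. In mutants 24 fell and 11 rose, where 12.1% and 13.8% of all genes did, so that the rises were near the share of all genes in both. By role, ligands had 3 falls and 1 rise of 13 tested in controls, and R-spondins with their receptors 3 falls of 9, and the 17 genes of the cytoplasmic machinery had 1 rise. Wnt targets other than the members had 2 rises of 13 and no fall. Other antagonists had 1 rise of 12 and no fall, and receptors with co-receptors 1 fall and 1 rise of 17. In mutants ligands had 6 falls and 1 rise, R-spondins with their receptors 4 falls, and the cytoplasmic machinery 2 falls and 4 rises. The other targets had 4 falls and 2 rises there, the other antagonists 3 falls and 2 rises, and receptors with co-receptors 5 falls and 1 rise. Some genes were listed under more than 1 role, so the counts by role do not add up to those of the 88. Differences between roles were not tested. The 5 with the largest change in controls were the hem ligand *Wnt8b*, from 11140 ± 1953 to 5209 ± 1082 (-1.10), *Fzd10*, from 1614 ± 336 to 768 ± 193 (-1.09), the cortical ligand *Wnt7a*, from 162 ± 34.8 to 377 ± 101 (1.2), the neurogenic factor *Neurod1*, from 450 ± 18.2 to 1048 ± 417 (1.11), and the antagonist *Sfrp4*, from 5.78 ± 5.43 to 19.1 ± 6.29 (1.89). Adjusted p-values were 0.0080, 0.0062, 0.025, 0.035 and 0.033 (limma). The *Sfrp4* mean in E12.5 controls was close to the value of 3 reads in those libraries, which was 2.955 to 4.378 normalized counts. Its mean in E12.5 mutants was lower still. The filter asks for at least 10 in only 4 libraries, so it can keep a gene this low at E12.5. The size of the *Sfrp4* change therefore rests on few reads at that age, in both genotypes. Calls of *Wnt8b* and *Fzd10* held whichever library was left out. Those of *Wnt7a*, *Neurod1* and *Sfrp4* were each lost without any of A6, A8, A15 or A16, that of *Sfrp4* also without A7, and that of *Neurod1* also without A7, A13 or A14. With no filter the calls of *Sfrp4* and *Neurod1* were lost, and that of *Sfrp4* also by edgeR and in a fit to the groups compared. In mutants the same 5 changed by -1.21, -1.43, 1.41, 1.30 and 1.78, and all 5 passed. In mutants the *Sfrp4* call was lost without A1 or A10 (adjusted p of up to 0.080), and those of *Sfrp4* and *Wnt7a* in a fit to the 8 libraries alone.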

How the data were processed

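Adaptors were removed with Trimmomatic 0.36, and reads were aligned to GRCm38 (Ensembl release 89) with STAR 2.5.2a and counted per gene with RSEM 1.2.31 by the authors. What the authors deposited is a normalized signal, each RSEM count having been divided by the library's DESeq2 size factor, with no pooling and no logarithm. All values were whole multiples of 1 read (tolerance 0.01), so whole reads were recovered. This check has less room in A3, where the size factor is near 1. The strand setting of the counting is not given in the sources used here. Exons of *Lef1*, *Sfrp2*, *Tcf7l1* and *Axin2* overlap antisense genes, of which the highest, over *Lef1*, averaged 20.3 against 2557 for *Lef1*. Names and positions came from GENCODE M21 (GRCm38), and 51719 of 51912 identifiers were named.

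Tests used limma 3.58.1 (R 4.3.3) on log2(value + 1) of 16454 genes with 6 group means and all 24 libraries (18 residual degrees of freedom, two-sided, Benjamini-Hochberg, threshold 0.05). A fold on this scale understates changes of low genes. Alternatives were other pseudocounts, filters and scalings, only the groups compared, log2 *Xist* as a covariate, edgeR 4.0.16 and DESeq2 1.42.0 on recovered reads, and leaving out each library. The fit was tested on simulated data with the same spread for all genes and no library that stood apart. That simulation does not show how the fit performs on these libraries. Replicate pairs differed by more than counting noise (chi-square per degree of freedom of 8.21 to 80.1 over 36 pairs). The members and lists were chosen with earlier results of these data known. The genes named were *Sox9*, the 10 genes, genes of the Wnt list that passed in mutants, up to 5 with the largest change that passed in a comparison of controls, the 3 genes most like each of the 10, leading markers and markers at or near 0, and *Xist*. Other markers of thalamus and diencephalon, and *Fzd1* as a gene the study picked, were named after values were seen. The hem covariate, the age comparison in mutants and the ratios were added after values were seen. Sequences came from RefSeq (GRCm38.p6). Summaries and plots were made in Python 3.11.15 (scipy 1.17.1, matplotlib 3.10.9).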

Additional observations from a re-analysis of the deposited data

Results flagged for a closer look

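In groups of 4, a library was singled out when its gap to the nearest other library took most of the range of its group (past Dixon's 95% limit). This met 6 of 60 groups tested, where chance alone gives about 1 in 20. *Sfrp2* in A1, an E13.5 Sox1Cre mutant, was high at 805 normalized counts, *Tcf7l1* in the same library at 1985 and *Sfrp1* at 8257. *Tcf7* was low in A13, an E12.5 control, at 533, and high in A18, a NestinCre mutant, at 622. *Tcf7l1* was high in A17, a NestinCre mutant, at 2030. A1 is the library with the lowest sums of hem, choroid plexus, meningeal and endothelial markers in its group, and the part of these sums in its values was not tested.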

How the results depend on the processing

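No paired analysis was possible because the labels tie no library to an embryo or a litter. Reads on genes of 16163560 to 49445219 per library gave each of the 10 genes at least 193 reads everywhere, so the spread between 4 libraries and not counting limited precision. With 1 library left out, the number of the 10 genes that passed ran from 0 to 4 with age in controls and from 3 to 6 with age in mutants, and stayed at 0 in all other comparisons. All genes that passed ran from 90 to 510 in E13.5 Sox1Cre mutants, 50 to 139 at E12.5, 2 to 7 in NestinCre mutants, 794 to 2629 with age in controls, 2948 to 4725 with age in mutants, 11 to 31 between control lines, 5 to 144 for the difference between Cre lines and 0 to 1 for that between ages.

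Of the 10 genes, those that passed with age numbered 5 in controls and 2 in mutants when only the groups compared were fitted. Over all genes, 1863 and 2133 of 16454 passed in these fits. Without a filter 4 of the 10 passed in mutants, beside 3639 of 30463 genes. With log2 *Xist* as a covariate 0 of the 10 passed with age in controls, and 0 in both genotypes with the hem sum as a covariate. With the hem sum 1 passed in E13.5 Sox1Cre mutants, *Sp5*. Over all genes DESeq2 called 358 in E13.5 Sox1Cre mutants, 298 at E12.5, 37 in NestinCre mutants, 152 between control lines, 98 between Cre lines and 20 between ages, and the cause was not tested. Fits to the groups compared called 44 and 76 in Sox1Cre mutants at E13.5 and E12.5, 13 between Cre lines and 2133 with age in mutants. NestinCre mutants had 5 calls without a filter, with a mean of at least 100 and by edgeR, and 2 with log2 *Xist*. Control lines had 22 with a mean of at least 100. The hem sum gave 231 in E13.5 Sox1Cre mutants, 99 between control lines, and 0 and 1 with age, and log2 *Xist* gave 0 with age in controls. Beside 0 calls between ages, 1 of the 10 genes (*Lef1*) had an unadjusted p under 0.05, near the 7.4% of all genes.

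Changes in sign were among small values that did not pass, unless the hem sum was in the model. In E13.5 Sox1Cre mutants the log2 change ran from -0.22 to 0.10 for *Nkd1*, -0.11 to 0.33 for *Sfrp1*, -0.029 to 0.20 for *Sfrp2*, -0.12 to 0.25 for *Tcf7*, -0.10 to 0.10 for *Tcf7l1* and -0.039 to 0.22 for *Tcf7l2* with 1 library left out. It was -0.039 for *Tcf7* with *Xist* and -0.0078 for *Tcf7l1* with the hem sum. At E12.5 it ran from -0.024 to 0.12 for *Nkd1*, -0.17 to 0.0049 for *Sp5* and -0.034 to 0.039 for *Tcf7l1*, and was 0.092 for *Sp5* and -0.0063 for *Tcf7l1* with *Xist*, and -1.4e-04 for *Axin2* and -0.11 for *Nkd1* with the hem sum. In NestinCre mutants it ran from -0.11 to 0.035 for *Axin2* and -0.12 to 0.024 for *Nkd1*. With age in controls *Sfrp1* ran from -0.15 to 0.29 and was -0.11 with *Xist*, -0.0028 by edgeR, -0.0074 by DESeq2 and -0.49 with the hem sum, which gave 0.055 for *Nkd1*, 0.063 for *Tcf7* and -0.15 for *Tcf7l1*. With age in mutants *Sfrp2* ran from -0.031 to 0.11, and the hem sum gave 0.10 for *Axin2*, 0.11 for *Nkd1*, 0.13 for *Tcf7*, -0.25 for *Tcf7l1* and -0.18 for *Sfrp2*.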
